A study of Mus musculus with 20 samples.

Results

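The aminoacyl-tRNA synthetases are the enzymes that join each amino acid to its own transfer RNA, the step that supplies charged tRNA to the ribosome. Their transcripts were measured in mouse blastocysts that had gone through all, some or none of the steps of an embryo biopsy. The set held 35 named synthetase genes, of 18161 genes with a probe set of a single symbol on the array, and these 35 are not every synthetase of the mouse. The platform annotation paired them with 72 probe sets, 16 of the genes under an older symbol without the final 1. A gene with several probe sets was represented by the one with the highest mean over the 20 arrays. All probe sets of Lars2 were also examined separately. Of the 35 representative probe sets, 34 passed the detection filter, 19 of 19 for the cytosolic enzymes and 15 of 16 for the mitochondrial ones.

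Cells hold separate synthetases for the cytosol and for the mitochondrion, and both sets are made from nuclear genes. The mitochondrial enzymes, most of which carry the number 2 in their symbol, serve only the few proteins that the mitochondrion translates itself, all parts of the respiratory chain and ATP synthase. Gars1 and Kars1 give both the cytosolic and the mitochondrial enzyme, and are counted here with the cytosolic set. Some cytosolic enzymes are held together by scaffold proteins in a multi-synthetase complex. When uncharged tRNA builds up, the kinase GCN2 slows translation and the transcription factor ATF4 is made, and ATF4 is known to raise the genes of many cytosolic synthetases along with amino acid transporters and biosynthetic enzymes.

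The 20 samples were pools of 20 embryos each, 400 CF1 embryos in all. They were treated at the 8-cell stage, cultured one by one and collected as blastocysts 96 h after hCG, the hormone given to induce ovulation. In the biopsy group, 1 blastomere was removed after exposure to calcium- and magnesium-free medium and after a breach of the zona pellucida with acid Tyrode's solution at pH 1.6. The CMF_acid group had both exposures without the removal, the acid group only the acid, the CMF group only the medium without calcium and magnesium, for 5 min, and the untreated group neither. Each group had 4 pools, numbered 2 to 5, and the labels do not say what pools of the same number shared. The p-values therefore measure only the spread between these pools, part of which may be technical. All groups share the strain, the culture medium and the amplification of the RNA in repeated rounds. Each pool mixes all cells of the blastocyst, so fewer cells of a type and less RNA per cell cannot be told apart. The level of a probe set is given as log2 of the GC-RMA intensity, and differences are on the same log2 scale. Levels of different probe sets are not comparable.

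The arrays held the tissue that the labels name. The markers of inner cell mass and of trophectoderm were Present, the software's call for a detected probe set, on all 20 arrays for 5 of 5 genes each, and those of primitive endoderm for 4 of 5. Of 7 cumulus and granulosa cell markers on the array, 5 were Present on none and 1, Amhr2, on all 20. One array stood apart. Replicate 5 of CMF_acid had 44.3% of probe sets Present, against 47.9% to 50.9% on the other 19 arrays, an actin 3′ to 5′ signal ratio of 4.22, against at most 3.06, and a mean correlation with the other arrays of 0.985, against at least 0.994. It was the lowest or the highest of the 20 arrays for 24 of the 34 tested synthetases (70.6%), against 52.5% of all tested probe sets. It was lowest for 15 of them and highest for 9. Most differences described below that rest on CMF_acid are therefore given with and without this array.

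The sequences below come from the window around the start of the gene and show where the cytosolic synthetases carry the letters TGATGNAA, the element that ATF4 binds together with a C/EBP partner. RefSeq windows of 250 bases before to 50 after the start (build GRCm38.p6) were at hand for 26 of the 35 genes, 12 cytosolic and 14 mitochondrial. The letters, read on both strands, stood in the windows of 5 of the 12 cytosolic genes (41.7%) and of 0 of the 14 mitochondrial genes. Of all 27025 genes with a window, 4.51% held them. The palindromic element of the nuclear respiratory factor NRF1, searched as exact letters, was in no window of the 26 genes and in 1.07% of all genes with a window. Each of the 5 sequences runs from 120 bases before to 30 bases after the start, 5′ to 3′ along the gene's strand, with the TGATGNAA letters or their reverse TTNCATCA in capitals.
Aars1, chr8:111033722-111033871, plus strand: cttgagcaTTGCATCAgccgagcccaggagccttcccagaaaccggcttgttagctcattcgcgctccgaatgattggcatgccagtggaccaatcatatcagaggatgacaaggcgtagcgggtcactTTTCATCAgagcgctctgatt
Gars1, chr6:55037881-55038030, plus strand: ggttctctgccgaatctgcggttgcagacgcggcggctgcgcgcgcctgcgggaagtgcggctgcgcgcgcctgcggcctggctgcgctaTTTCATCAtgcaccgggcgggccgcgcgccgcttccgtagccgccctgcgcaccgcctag
Iars1, chr13:49682010-49682159, plus strand: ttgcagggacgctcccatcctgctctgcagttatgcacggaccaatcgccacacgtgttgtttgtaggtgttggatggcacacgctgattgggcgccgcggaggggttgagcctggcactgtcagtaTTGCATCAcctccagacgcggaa
Tars1, chr15:11399629-11399778, minus strand: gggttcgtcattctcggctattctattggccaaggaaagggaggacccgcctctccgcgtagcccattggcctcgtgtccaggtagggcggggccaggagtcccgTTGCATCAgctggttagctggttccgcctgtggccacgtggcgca
Yars1, chr4:129189783-129189932, plus strand: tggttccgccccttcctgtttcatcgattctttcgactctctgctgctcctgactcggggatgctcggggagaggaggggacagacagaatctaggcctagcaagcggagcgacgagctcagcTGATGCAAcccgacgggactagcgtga

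In Aars1, the alanyl-tRNA synthetase gene, the letters occur at 2 places, their first base 112 bases before the start and 10 bases after it. They begin 30 bases before the start in Gars1 (glycine) and 15 bases before it in Tars1 (threonine). In Iars1 (isoleucine) and Yars1 (tyrosine) they lie just after the start. A match of letters is a description of the sequence and not a measured binding site.

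All 19 cytosolic genes were Present on all 20 arrays, and so were 14 of the 16 mitochondrial genes. Mars2, the mitochondrial methionyl-tRNA synthetase, was Present on 16 arrays, and its 4 biopsy pools measured 6.57, 6.78, 7.17 and 6.56, against 6.56, 6.51, 6.86 and 6.16 in untreated pools. Aars2, the mitochondrial alanyl-tRNA synthetase, was Present on none, so it was not tested, and its values lay between 5.53 and 5.78 on all arrays. Among the tested genes, the SD within groups ran from 0.08 for Farsb, the beta subunit of the phenylalanine enzyme, to 0.39 for Ears2, the mitochondrial glutamyl-tRNA synthetase. Hars1 (0.11) and Mars1 (0.12) were next to Farsb at the steady end, while Cars1 (0.37) and Tars1 (0.34) were next to Ears2 at the variable end. This order rests in part on replicate 5 of CMF_acid. Without that array the SD was 0.22 for Ears2 and 0.15 for Tars1, and the variable end was Cars1 (0.34), Vars1 (0.29) and Farsa (0.26). At the steady end Hars1 was then at 0.07, Farsb at 0.08 and Qars1, the glutamine enzyme, at 0.09. The median SD within groups was 0.17 for the cytosolic and 0.18 for the mitochondrial genes, against 0.20 over all tested probe sets, and without the array it was 0.14, 0.15 and 0.17.

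Biopsied blastocysts were set against untreated ones to ask whether the whole procedure left a mark on these transcripts. No synthetase passed the test: 0 of 34 had an adjusted p under 0.05 (limma, Benjamini-Hochberg over all 25553 tested probe sets), and neither did any other probe set, 0%. At an unadjusted p under 0.05 there were 2 of 34 synthetases, Sars2 and Lars2, where 2.09% of all tested probe sets reached that value. For the representative probe sets of 32 of the 34 genes (94.1%), the 95% interval of the difference lay within 1.5-fold either way. This held for 76.9% of all tested probe sets. The bound covers 1 probe set per gene. Intervals of some further probe sets reached past it, among them a dimmer Lars2 probe set and the second Hars2 probe set, both described below. Among cytosolic genes 5 differences were above 0 and 14 below, with a median of -0.04 that was 0.03 without replicate 3 of the untreated group. Among mitochondrial genes 9 were above and 6 below, with a median of 0.05, and 58.5% of all tested probe sets were above 0, with a median of 0.01. With the Affymetrix software signal in place of the GC-RMA values, the mitochondrial median was -0.00. Primitive endoderm markers were below 0 in 5 of 5 genes in the same comparison, with a median of -0.20. They were also below 0 in 5 of 5 in CMF_acid against untreated, with the same median. In acid and in CMF against untreated, 2 of 5 were above 0, with medians of -0.03 and -0.01. The mean of the 4 treatments, which includes biopsy and CMF_acid, had 5 of 5 below 0, with a median of -0.11. None of these markers had an unadjusted p under 0.05 in these comparisons (limma). Replicate 5 of CMF_acid was kept in all of them. The part of these markers in the synthetase values was not tested.

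**Figure D1:**
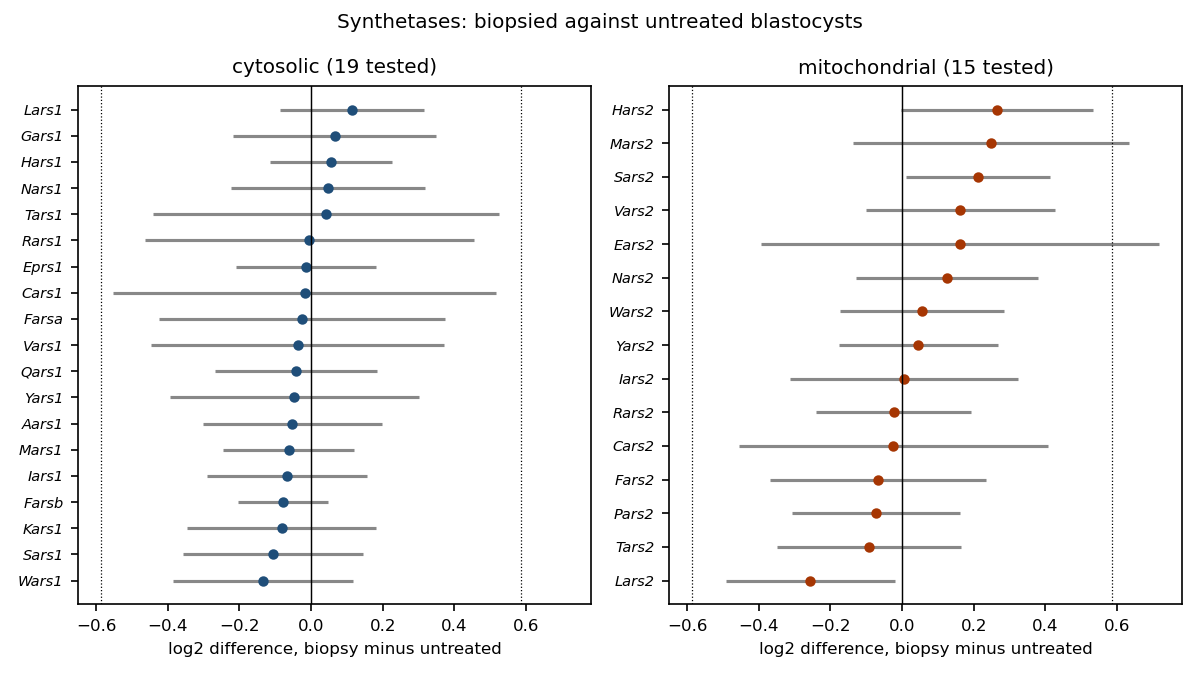
Difference between biopsied and untreated blastocysts (x axis, log2, dots) with its 95% interval (grey lines). Shown are the representative probe sets of the 19 cytosolic (left) and 15 mitochondrial (right) synthetases tested, and dotted lines mark a 1.5-fold change either way. Only the intervals of Ears2 and Mars2 reach past a dotted line, and those of Sars2 and Lars2 are the only ones that leave out 0.

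Sars2, which charges the mitochondrial serine tRNAs, lay above untreated blastocysts on average in all 4 treated groups without passing the test. Its 4 pools measured 8.28, 8.21, 8.28 and 8.39 in biopsy, 8.32, 8.28, 8.47 and 8.31 in CMF_acid, 8.41, 8.27, 8.21 and 8.36 in acid, 8.40, 8.27, 8.26 and 8.06 in CMF, and 7.96, 8.29, 8.25 and 7.81 in untreated blastocysts. The untreated pools fell into a pair near the treated values and a pair below them, so every treated group overlapped with the untreated one. The difference was 0.21 ± 0.09 (SE) for biopsy, 0.27 for CMF_acid (0.28 without its replicate 5), 0.24 for acid and 0.17 for CMF, each against the same 4 untreated pools. The adjusted p by limma was 1.0 for biopsy, acid and CMF and 0.83 for CMF_acid. The mean of the 4 treatments lay 0.22 above untreated (interval 0.06 to 0.38, unadjusted p = 0.0095, adjusted p = 1.0), and this difference lay between 0.13 and 0.29 over single left-out arrays.

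Hars2, which charges the mitochondrial histidine tRNA, had 2 tested probe sets. The one with the higher signal measured 8.68, 8.58, 8.60 and 8.64 in biopsy pools, against 8.63, 8.57, 8.35 and 7.89 in untreated pools, a difference of 0.26 ± 0.13 (SE) with an interval of -0.00 to 0.53. Replicate 5 of the untreated group was the low value, and without it the difference was 0.11. With the software signal the direction turned, to -0.14 for biopsy and -0.11 for CMF. The other probe set measured 8.17, 7.96, 7.80 and 7.94 in biopsy pools, against 7.68, 7.70, 7.95 and 7.27 in untreated pools, and 2.89 on replicate 5 of CMF_acid, against 7.73 to 7.92 on the other 3 CMF_acid arrays.

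**Figure D2:**
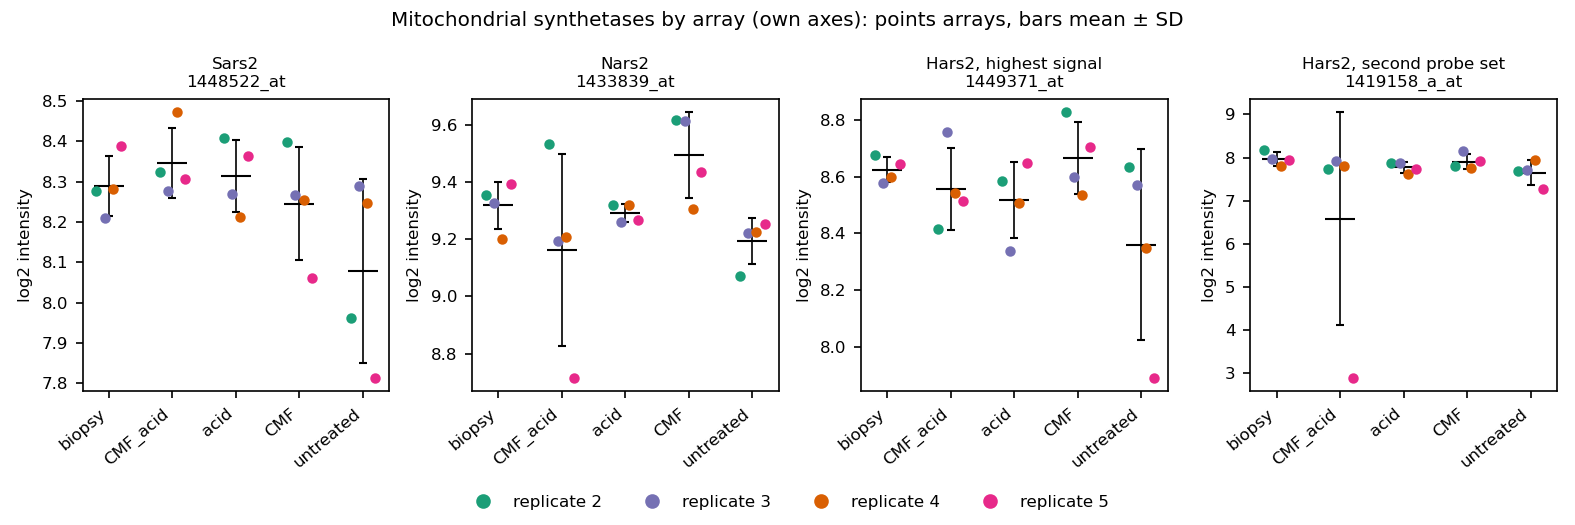
Level (y axis, log2 GC-RMA intensity, own axis per panel) of Sars2, Nars2 and both Hars2 probe sets in each group; points are arrays coloured by replicate number, bars the mean and SD of 4 pools. The low Sars2 and Hars2 values of the untreated group come from replicates 2 and 5 and from replicate 5, and replicate 5 of CMF_acid lies at 2.89 for the second Hars2 probe set.

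Lars2, which charges the mitochondrial leucine tRNAs, gave probe sets that pointed in opposite directions. Its brightest probe set, 1435682_at, measured 10.46, 10.37, 10.00 and 10.59 in biopsy pools, against 10.61, 10.72, 10.49 and 10.62 in untreated pools. The groups overlapped through 1 biopsy pool, replicate 5, and the difference was -0.26 ± 0.11 (SE; unadjusted p = 0.035, adjusted p = 1.0 by limma). Without replicate 4 of the biopsy group it was -0.14. The same probe set averaged 10.58 in CMF_acid, 10.56 in acid and 10.56 in CMF blastocysts, against 10.61 in untreated ones.

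The dim probe set 1443672_at, Present on 18 arrays, measured 5.32, 5.00, 6.01 and 5.32 in biopsy pools, against 3.89, 4.65, 4.63 and 4.77 in untreated pools. All 4 biopsy values lay above all 4 untreated values, as they did for 1.74% of all tested probe sets. The difference was 0.93 ± 0.22 (SE; interval 0.46 to 1.41, unadjusted p = 0.00072, adjusted p = 1.0 by limma). The other groups lay between these on average, with 4.62, 4.75, 4.91 and 5.46 in CMF_acid, 4.98, 4.73, 4.76 and 4.72 in acid, and 4.35, 4.60, 4.91 and 4.57 in CMF. Leaving out single arrays moved the biopsy difference between 0.73 and 1.07. In the software signal as deposited, on its linear scale, biopsy pools were at 28.5, 29.6, 31.8 and 25.9. Untreated pools were there at 11.8, 19.6, 18 and 26, so the groups overlapped slightly. Replicate 5 of CMF_acid was the highest of all arrays in that signal, at 46.6. The remaining probe set, 1439225_at, was Present on no array and ranged from 3.65 to 4.96.

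With the group means removed, the levels of the 2 detected probe sets had a correlation of -0.33 over the 20 arrays. The genes whose arrays followed the bright Lars2 probe set most closely, measured the same way over 20 arrays, were Tbc1d19 (r = 0.88), Nav1 (0.87), Tpp1 (0.86), Apoa1 (0.84) and Pcyox1 (0.83). Without the 2 arrays farthest from the median, r lay between 0.73 and 0.85 for these 5 genes. They were picked as the highest of all named probe sets, and the arrays of a pool number share whatever the labels leave unsaid.

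**Figure D3:**
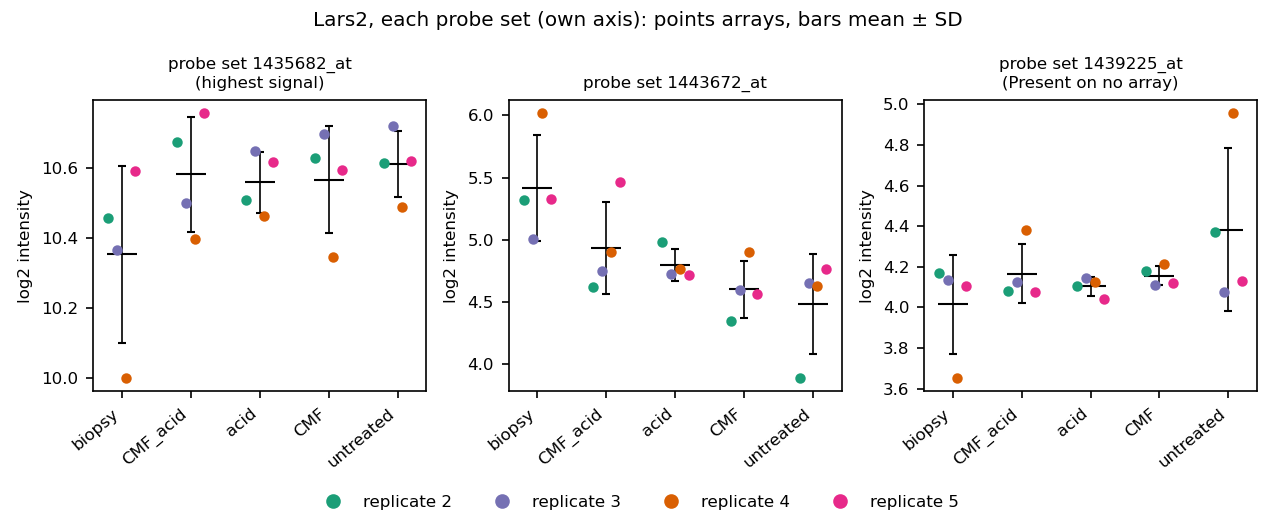
Level (y axis, log2 GC-RMA intensity, own axis per panel) of the 3 Lars2 probe sets in each group; points are arrays coloured by replicate number, bars the mean and SD of 4 pools. In the left panel the biopsy pools sit lowest on average, and in the middle panel all 4 biopsy pools lie above the untreated pools.

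The blastomere removal itself was isolated by setting biopsy against CMF_acid, the group with the same exposures. No synthetase and no other probe set had an adjusted p under 0.05 (limma, 0%). At an unadjusted p under 0.05 there were 3 synthetases, where 7.36% of all tested probe sets reached it. Tars2, the mitochondrial threonyl-tRNA synthetase, measured 10.83, 10.60, 10.41 and 10.51 in biopsy, against 10.77, 10.87, 10.68 and 11.30 in CMF_acid pools, a difference of -0.32. Qars1, which charges glutamine tRNA, measured 14.05, 13.97, 14.08 and 13.87 in biopsy, against 14.11, 14.10, 14.04 and 14.65 in CMF_acid pools, a difference of -0.23. Sars1, the cytosolic serine enzyme, differed by -0.25. In each of the 3 genes the highest value was replicate 5 of CMF_acid. Without that array the differences were -0.19, -0.09 and -0.12, and 0 of 34 synthetases reached an unadjusted p under 0.05.

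The largest of the 34 differences above 0 was that of Tars1, the cytosolic threonyl-tRNA synthetase, which measured 13.32, 13.27, 13.02 and 13.24 in biopsy, against 13.43, 13.01, 12.99 and 11.79 in CMF_acid pools. Its difference of 0.41 was 0.07 without replicate 5 of CMF_acid. Pars2 (0.20, mitochondrial proline) and Cars2 (0.31, mitochondrial cysteine) were the other two above 0 among the lowest p-values, and their differences without that array were 0.12 and 0.03. Above 0 were 9 of 19 cytosolic and 9 of 15 mitochondrial synthetases and 47.8% of all tested probe sets. The median over mitochondrial synthetases was 0.07 with all arrays and 0.02 without it, and -0.02 when each array was centred on its median or when the software signal was used. The median over cytosolic synthetases was -0.02 with all arrays and -0.04 without it.

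Exposure to both agents without biopsy was tested as CMF_acid against untreated. No adjusted p was under 0.05 (limma, 0% of all probe sets), and 3 synthetases had an unadjusted p under 0.05, where 2.67% of all tested probe sets did. These were Sars2 (above), Hars1 and Pars2. Hars1, the cytosolic histidine enzyme, measured 14.44, 14.40, 14.37 and 14.80 in CMF_acid, against 14.34, 14.39, 14.26 and 14.29 in untreated pools, a difference of 0.18 that was 0.08 without replicate 5 of CMF_acid. Pars2 measured 7.87, 7.92, 7.76 and 7.55 in CMF_acid, against 7.91, 8.14, 8.11 and 8.02 in untreated pools, a difference of -0.27 that was -0.20 without that array. Its other groups averaged 7.97 in biopsy, 7.95 in acid and 8.04 in CMF blastocysts.

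The count of directions moved with the same array. With all 20 arrays, 8 of 19 cytosolic and 8 of 15 mitochondrial synthetases were above 0, with medians of -0.03 and 0.01, beside 53.9% of all tested probe sets. Without replicate 5 of CMF_acid, 13 of 19 and 11 of 15 were above 0, with medians of 0.03 and 0.09, beside 59.5% of all tested probe sets.

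The medium without calcium and magnesium was also tested alone. Against untreated blastocysts, 15 of 19 cytosolic and 11 of 15 mitochondrial synthetases were above 0 in CMF, where 49.8% of all tested probe sets were. The medians were 0.03 and 0.13, with 0.00 over all tested probe sets. No adjusted p was under 0.05 (limma, 0%). The mitochondrial median was 0.01 without replicate 5 of the untreated group and 0.04 with the software signal, and the cytosolic one was -0.01 when each array was centred on its median. Unadjusted p was under 0.05 for 2 synthetases, Nars2 and Hars2, and for 1.01% of all tested probe sets.

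Nars2, the mitochondrial asparaginyl-tRNA synthetase, measured 9.62, 9.61, 9.31 and 9.44 in CMF pools, against 9.07, 9.22, 9.22 and 9.25 in untreated pools. The groups did not overlap, as held for 2 of the 34 synthetases in this direction and for 0.415% of all tested probe sets. The difference was 0.30 ± 0.12 (SE; interval 0.05 to 0.55, adjusted p = 1.0 by limma), and it stayed between 0.26 and 0.36 over single left-out arrays. The other gene was Wars2, the mitochondrial tryptophan enzyme, with 8.82, 8.89, 8.95 and 8.82 in CMF pools, against 8.80, 8.76, 8.54 and 8.67 in untreated pools. Nars2 averaged 9.32 in biopsy, 9.16 in CMF_acid and 9.29 in acid blastocysts. On replicate 5 of CMF_acid it was at 8.72, the lowest of all arrays. In the software signal as deposited, on its linear scale, the CMF and untreated pools of both genes overlapped. Nars2 was there at 241.2, 217.4, 153.2 and 188.2 in CMF pools, against 152.4, 169.5, 169 and 161.6 in untreated pools. Wars2 was at 179.7, 163.5, 171 and 168.2, against 151.1, 176.5, 137.9 and 161.

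Acid Tyrode's solution alone gave 1 synthetase with an unadjusted p under 0.05, Sars2, where 1.16% of all tested probe sets reached it, and no adjusted p under 0.05 (limma, 0%). Fars2, the mitochondrial phenylalanine enzyme, had a difference of 0.23 with an interval of -0.07 to 0.53. At the other end Yars2 was at -0.10, Cars1 at -0.24 and Cars2 at -0.19, all with intervals that held 0. The cytosolic genes were split 10 above and 9 below 0, the mitochondrial ones 9 and 6, and 48% of all tested probe sets were above 0. The groups of Nars2 did not overlap here either, with acid pools at 9.32, 9.26, 9.32 and 9.27, all just above the highest untreated value of 9.25, for a difference of 0.10. It was the only one of 34 synthetases to lie higher without overlap, where 0.419% of all tested probe sets did. In the software signal as deposited its groups overlapped, with 191, 158.2, 164.4 and 153.4 in acid pools, against 152.4 to 169.5 in untreated pools.

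The interaction of the 2 exposures, the CMF_acid difference minus the sum of the CMF and acid differences, had an unadjusted p under 0.05 for Nars2 (-0.43) and Yars2 (0.32) and for 3.4% of all tested probe sets. No adjusted p was under 0.05 (limma, 0%). Above 0 were 10 of the 19 cytosolic genes, 3 of the 15 mitochondrial genes and 48.9% of all tested probe sets, and the mitochondrial median was -0.15. Without replicate 5 of CMF_acid, 6 of 15 mitochondrial genes were above 0, with a median of -0.10. Nars2 was then at -0.28 with an unadjusted p of 0.031 (limma), Yars2 was at 0.22 with one of 0.10, and 1 synthetase had an unadjusted p under 0.05. Centring each array on its median shifted the median of all tested probe sets by 0.11 in this contrast. Averaged over the 4 treatments, the difference from untreated was within 1.5-fold either way, interval included, for representative probe sets of all 34 tested synthetases. Of these, 8 of 19 cytosolic and 9 of 15 mitochondrial genes were above 0, beside 55.9% of all tested probe sets. In that average, Sars2 and Hars2 were the 2 genes with an unadjusted p under 0.05, where 0.92% of all tested probe sets reached it, and no adjusted p was under 0.05 (limma, 0%). Without replicate 5 of CMF_acid there were 3, Nars2 (0.16) being the other, and 10 of 19 and 10 of 15 were above 0.

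The F test over all 5 groups found 0 of 34 synthetases and 0% of all probe sets at an adjusted p under 0.05 (limma), with 1.81% of all probe sets at an unadjusted p under 0.05.

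The 5 cytosolic genes whose promoters carry the TGATGNAA letters lay on both sides of 0. In biopsy against untreated blastocysts Aars1 was at -0.05, Gars1 at 0.07, Iars1 at -0.07, Tars1 at 0.04 and Yars1 at -0.05, none with an adjusted p under 0.05. In CMF against untreated, all 5 lay between -0.00 and 0.06. Other genes that ATF4 is known to raise, and Atf4 itself, had a median SD within groups of 0.29, against 0.17 for the cytosolic synthetases, and of 0.28 against 0.14 without replicate 5 of CMF_acid. Of 20 listed, 19 were tested, and none had an adjusted p under 0.05. In biopsy 15 of them were above 0 with a median of 0.09, beside 58.5% of all tested probe sets above 0. In acid 15 of them were below 0 with a median of -0.06, where 48% of all tested probe sets were above 0. The largest was Nupr1, a small stress-response chromatin protein Present on 13 arrays, at 6.14 ± 0.98 in biopsy and 5.05 ± 0.35 in untreated pools (SD, n = 4 each). Trib3, a pseudokinase that restrains ATF4, averaged 7.64 ± 0.89 in biopsy and 6.91 ± 0.23 in untreated pools. Atf4 itself averaged 14.06 ± 0.13 in biopsy and 13.95 ± 0.17 in untreated pools, and Asns, which makes asparagine, averaged 12.49 ± 0.46 in biopsy and 12.48 ± 0.14 in untreated pools.

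For the representative probe sets of all 7 multi-synthetase complex enzymes, the interval of biopsied against untreated blastocysts lay within 1.5-fold either way. In biopsied blastocysts the 7 enzymes ranged from -0.08 (Kars1, lysine) to 0.11 (Lars1, leucine), 6 of them below 0, with Eprs1 (the joint glutamate and proline enzyme) at -0.01, Iars1 at -0.07, Mars1 at -0.06, Qars1 at -0.04 and Rars1 at -0.00. The scaffold proteins were at -0.03 for Aimp1, -0.06 for Aimp2 and 0.16 for Eef1e1. None of the 10 had an adjusted p under 0.05 (limma). In biopsy against CMF_acid, Eef1e1 was 0.37 higher with an unadjusted p under 0.05 and Aimp1 0.30 higher. Without replicate 5 of CMF_acid these were 0.13 (unadjusted p = 0.096, limma) and -0.08.

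Among the genes that act beside the synthetases, which load formyl or amide groups, mend tRNA ends, clear pyrophosphate or carry charged tRNA, 19 of 20 listed were tested and none had an adjusted p under 0.05. In biopsy 14 were above 0 and 5 below, with a median of 0.04, where 58.5% of all tested probe sets were above 0. Gatb, a subunit of the mitochondrial amidotransferase that makes glutaminyl-tRNA where no such synthetase exists, averaged 8.90 ± 0.09 in biopsy and 9.12 ± 0.18 in untreated pools (SD, n = 4 each). Its difference of -0.22 had an unadjusted p of 0.011 and was the only one of the 19 under 0.05, where 2.09% of all tested probe sets were. Qrsl1, the catalytic subunit of the same enzyme, was at 0.17, and Gatc at 0.03.

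For 13 amino acids a cytosolic and a mitochondrial gene could be set side by side. The mitochondrial difference was the greater in 8 of 13 pairs in biopsy, 8 in CMF_acid (10 without its replicate 5), 8 in acid and 10 in CMF, all against the same untreated pools. In biopsy the serine pair had Sars2 at 0.21 and Sars1 at -0.11, and the leucine pair ran the other way, with Lars2 at -0.26 and Lars1 at 0.11. Different probe sets of a gene often disagreed at this size of difference: of 27 further tested probe sets in 19 genes, 13 had the opposite sign to the representative one in biopsy against untreated, 14 in CMF, 9 in acid and 12 in CMF_acid. Of the 35 representative probe sets, 9 carry a suffix (_s_at or _x_at) that the array's maker gives to probe sets that may also bind other transcripts.

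With the group means removed, the mean correlation between pairs of genes over the 20 arrays was 0.19 for the cytosolic and 0.08 for the mitochondrial synthetases, and 0.0098 for all tested probe sets. Without replicate 5 of CMF_acid it was 0.32, 0.08 and 0.015. These are descriptions, since the genes share arrays. On each array, the median deviation of the cytosolic synthetases from their means lay between -0.13 and 0.14, with an SD of 0.09 within groups, and that of the mitochondrial synthetases between -0.28 and 0.15, with an SD of 0.08. The groups accounted for a median of 13.7% of the sum of squares of a cytosolic gene and of 29.8% of a mitochondrial one, against 19.5% over all tested probe sets, and all 3 shares were lower without replicate 5 of CMF_acid. In the biopsy group the cytosolic median was 0.07, -0.01, -0.07 and -0.04 over replicates 2 to 5, and in the untreated group -0.04, 0.13, 0.00 and -0.07. The lowest mitochondrial median, -0.28, was that of replicate 5 of CMF_acid, where 7 mitochondrial genes were at their lowest and 4 at their highest of all arrays. Without it the SD of the mitochondrial median was 0.05.

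**Figure D4:**
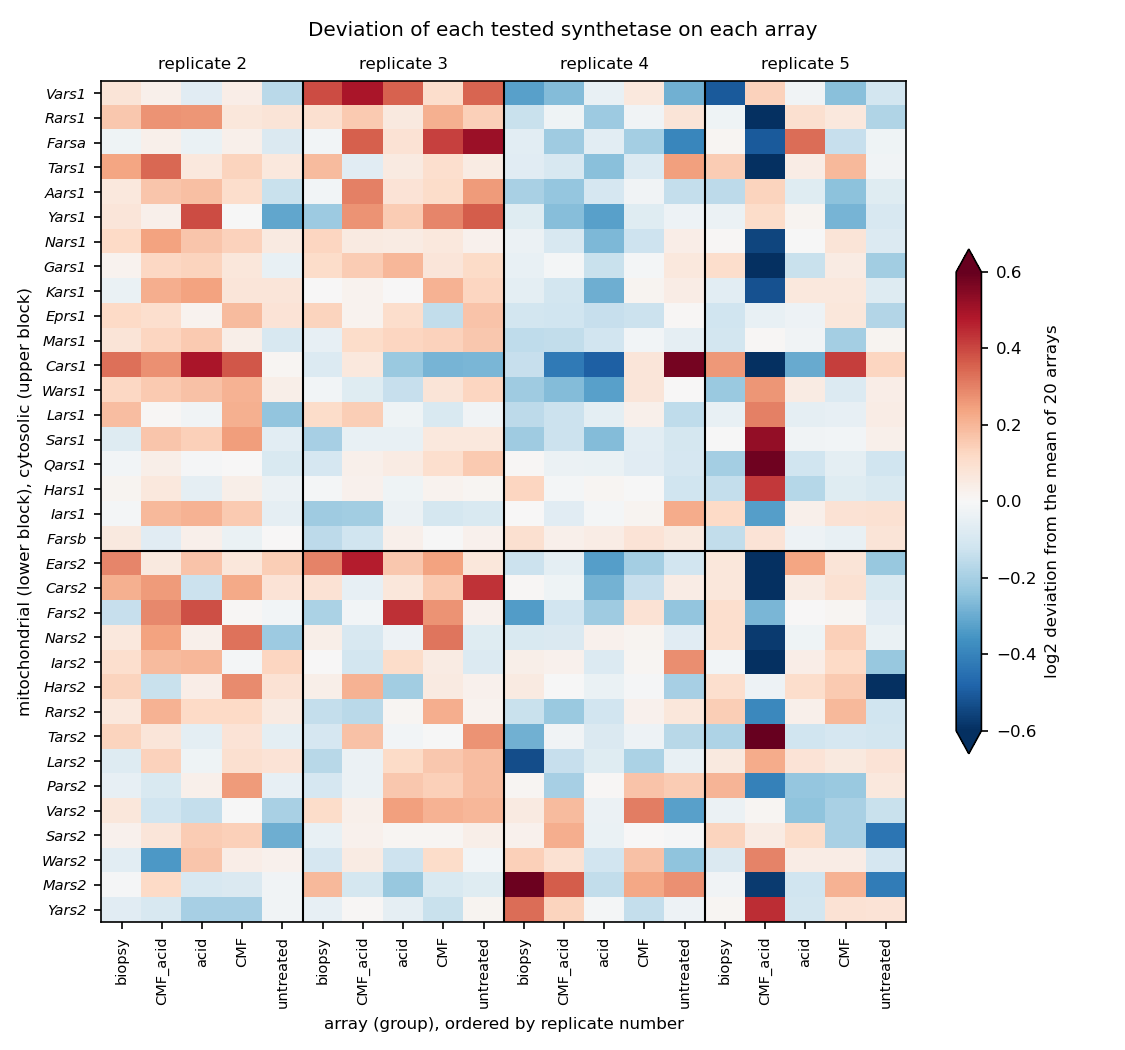
Deviation of each tested synthetase from its mean over 20 arrays (colour, log2; saturated past 0.6 either way), with arrays in columns by replicate number and, within it, by group, and cytosolic genes above the mitochondrial ones. The column of CMF_acid replicate 5 holds most of the darkest cells, and many cytosolic rows are red under replicates 2 and 3 and blue under replicate 4.

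This variation was also set against the pool number. The test, added after seeing the data, was limma's moderated F for the replicate number, with the groups in the same fit. An adjusted p under 0.05 was reached by 1 of 34 synthetases (2.94%), beside 4.13% of all tested probe sets. An unadjusted p under 0.05 was reached by 11 of 34 (32.4%), beside 21.1%. These counts cover the representative probe set of each gene. Further probe sets of Tars2 (adjusted p = 0.018, limma) and Qars1 (0.028) passed too, while the representative probe sets of these genes did not (0.65 and 0.96). The 1 gene whose representative probe set passed was Vars1, which charges valine tRNA in the cytosol, with an adjusted p of 0.038. It measured 9.92, 9.87, 9.77, 9.89 and 9.68 in replicate 2 of biopsy, CMF_acid, acid, CMF and untreated, and 10.24, 10.33, 10.20, 9.95 and 10.19 in replicate 3. In the same group order replicate 4 measured 9.52, 9.59, 9.80, 9.91 and 9.55, and replicate 5 measured 9.34, 9.98, 9.82, 9.59 and 9.73. All 5 values of replicate 3 were the highest of their group. Vars1 did not pass with arrays centred on their median, with the software signal, without a detection filter or with trend and robust variances, and 0 to 5 synthetases passed when single arrays were left out.

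The median share of the sum of squares that went with the number was 33.8% for cytosolic and 23.4% for mitochondrial genes, against 19.7% over all tested probe sets. Replicates 2 and 3 averaged above replicates 4 and 5 in 17 of 19 cytosolic genes and 12 of 15 mitochondrial genes, a split made after seeing the values, beside 52.5% of all tested probe sets. Without replicate 5 of CMF_acid the counts were again 17 and 12. Then 5 of 34 synthetases (14.7%) had an adjusted p under 0.05 for the number, beside 9.37% of all tested probe sets. These were Vars1, Ears2, Aars1, Lars2 and Nars1. The actin 3′ to 5′ ratio ran from 1.55 to 2.47 on arrays of replicate 2, from 1.85 to 2.36 on replicate 3, from 1.51 to 3.06 on replicate 4 and from 1.79 to 4.22 on replicate 5. Its part in the pattern was not tested.

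**Figure D5:**
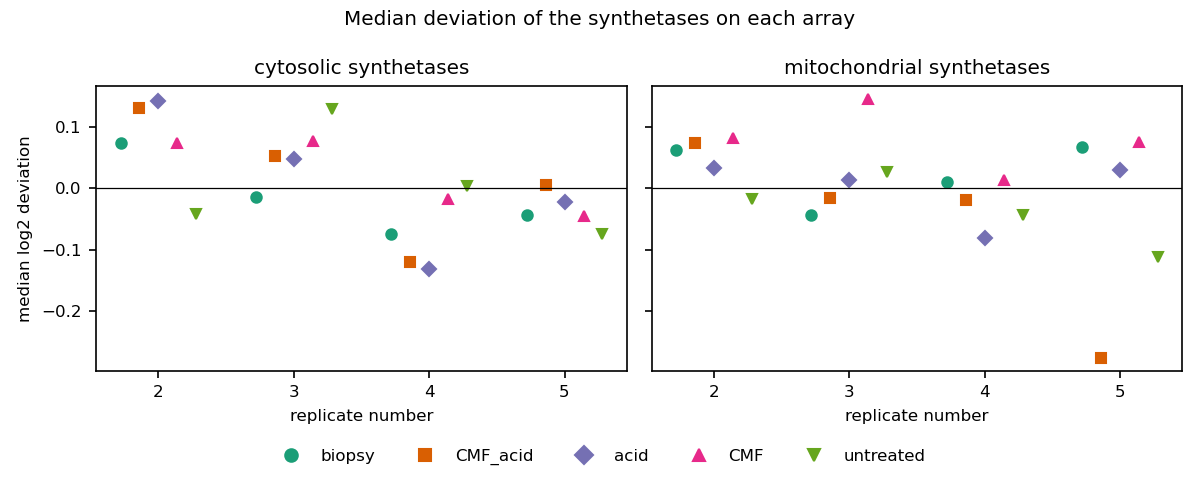
Median deviation (y axis, log2) of the 19 cytosolic (left) and 15 mitochondrial (right) synthetases on each array, by replicate number (x axis) with symbols for the groups. The cytosolic medians lie between -0.13 and 0.14, and the lowest mitochondrial median, -0.28, is that of CMF_acid replicate 5.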

How the data were processed

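The authors' deposited series table gave 1 intensity per probe set and array on the linear scale, made with GC-RMA in ArrayAssist Lite 3.4, per the series design text; per the submitters' processing notes the tool was GCRMA. Per the file headers, each array's own deposited table held the signal intensity from the Affymetrix software with a Present or Absent call and its p-value, used for the filter and as an alternative. Of 45101 probe sets, 64 controls were left out and 25553 with a Present call on at least 3 of 20 arrays were tested, the filter of the design text. Values were log2 transformed and fitted with limma 3.58.1 in R 4.3.3 as 5 group means over 20 arrays, with Benjamini-Hochberg adjustment over all tested probe sets in 7 comparisons and an F test, and a call at adjusted p under 0.05. Unadjusted 95% intervals used 16.4 degrees of freedom. The number of arrays limits the precision. The code was tested on simulated data.

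Members, lists and tests were chosen with earlier results of these data known. Named were Lars2, per comparison the 3 members in each direction with the lowest p, the steadiest and most variable members, those not Present on every array, those with an array apart, and up to 3 genes per other list. Alternatives were the software signal (log2 of signal plus 1, quantile normalized), other detection filters, centred arrays, the replicate number as a block, only the groups compared, trend and robust variances, the mean of all tested probe sets of a gene, and each array left out. No arrays were identical. Genes were named from the platform annotation, updated through gene numbers.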

Additional observations from a re-analysis of the deposited data

Results flagged for a closer look

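Within groups of 4 pools, 1 array was set against the other 3 for each of the 35 representative probe sets, the other Lars2 probe sets and the second Hars2 probe set, which was chosen after its values were seen. Of 190 such groups, 13 had an array standing apart (6.84%). Chance gives about 5%, but the count includes the Hars2 probe set chosen for its values, so these shares are not strictly comparable. Replicate 5 of CMF_acid was such an array 3 times, at 14.65 for Qars1, at 14.80 for Hars1 and at 2.89 for the second Hars2 probe set, where the other 3 CMF_acid pools lay between 7.73 and 7.92.

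In the acid group, replicate 4 was the low array for Ears2 (9.30) and Tars1 (12.83), replicate 3 the high array for Vars1 (10.20) and replicate 5 the low array for Aars2 (5.53). In the CMF group, replicate 3 was the high array for Aars2 (5.78), a probe set Present on no array. Replicate 4 of biopsy was high for Wars2 (8.92) and low for the undetected Lars2 probe set (3.65). For that same probe set replicate 4 of CMF_acid was high (4.38). Among untreated pools, replicate 3 was high for Qars1 (14.23) and replicate 2 was low for the dim Lars2 probe set (3.89, against 4.63 to 4.77 in the other 3). The biopsy pools of that dim Lars2 probe set, at 5.00 to 6.01, lie above the other untreated pools as well.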

How the results depend on the processing

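Leaving out single arrays, the number of synthetases with an adjusted p under 0.05 was 0 to 0 in each of the 7 comparisons and the F test, and it was 0 under each alternative run. Over all probe sets that count was 0 to 1 for all comparisons other than biopsy against CMF_acid (0 to 0); the 1 came without replicate 5 of untreated, and in 1 comparison each without replicate 5 of acid or replicate 4 of CMF_acid. The added count for the replicate number, 1, covers representative probe sets. It was 0 with centred arrays, no detection filter, the software signal or trend and robust variances. Over left-out arrays it was 0 to 5 (5 without replicate 5 of CMF_acid, 2 without replicate 2 of untreated). The F test and the number were not run on only the groups compared. The mitochondrial median was -0.016 for biopsy against CMF_acid with centred arrays and -0.015 with the software signal; for CMF against untreated it was 0.043 with the mean of all tested probe sets, 0.040 with the software signal and 0.010 to 0.14 over left-out arrays; for CMF_acid against untreated it was -0.060 to 0.094 over them. The cytosolic medians, -0.04 to 0.03 over the 6 comparisons, each changed sign when some single array was left out, and the mitochondrial ones did so for acid, CMF_acid and the mean of 4 treatments against untreated.

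Directions turned with the mean of all tested probe sets for Lars2 (0.34 in biopsy, 0.037 in CMF, 0.18 over the 4 treatments), Farsb in CMF (0.020), and the interaction of Hars1 (-0.10) and Fars2 (0.030). With the software signal they turned for Hars2 (-0.14 in biopsy, -0.11 in CMF, -0.037 in acid, -0.073 over the 4 treatments), Farsb in CMF (0.0043) and the interaction of Fars2 (0.035). Over left-out arrays Lars2 in CMF ran from -0.087 to 0.029 (without replicate 4 of CMF) and the dim Lars2 probe set in CMF from -0.079 (without replicate 2 of untreated) to 0.21. The cause was not tested. With the replicate number as a block, 0 synthetases and 0 probe sets were called in each comparison, as without it. Arrays of the same number correlated above 0.1, group means removed, in 30 of 40 pairs (median 0.20, lowest -0.09), which does not meet the rule for pairing, and each of the 20 arrays correlated best with its own number. Dim probe sets, such as Aars2 and 2 of 3 of Lars2, limit what can be read.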

Other observations

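In acid against untreated blastocysts 15 of the 19 tested genes of the ATF4 list were below 0, where 48% of all tested probe sets were above 0. None of these differences had an adjusted p under 0.05 (limma). Ddit3, which encodes the stress factor CHOP, was at -0.52 with an unadjusted p of 0.029. It was the only 1 of the 19 under 0.05, where 1.16% of all tested probe sets were. Ddit4, an inhibitor of the mTOR pathway, was at -0.66, and Chac1, which breaks down glutathione, at -0.97. In biopsy the same 3 genes were at 0.09, 0.49 and 0.75, and no gene of the list had an unadjusted p under 0.05 (limma). Both comparisons share the untreated pools, and the difference between them was not tested.

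Several partners of the synthetases were low on replicate 5 of CMF_acid, where the median deviation of the 19 tested partners was -0.57. Their median on the other 19 arrays lay between -0.10 and 0.12.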
